A study of Rattus norvegicus with 15 samples.

Results

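SREBF2, INSIG1 and 6 enzymes of cholesterol synthesis were followed through 15 libraries of chemically induced rat mammary tumours. The 8 genes (SREBF2, INSIG1, HMGCS1, IDI1, FDPS, SQLE, LSS and EBP) were found by symbol, and all 8 were among the 17463 rows of the count table and among the 11665 genes that passed the filter on low counts. The midkine group held 9 libraries from Fischer rats given recombinant midkine, a heparin-binding growth factor, at 300 ug/kg, 3 times per week in 2 courses of 2 weeks. The vehicle group held 6 libraries from Fischer rats labelled as vehicle-treated. Tumours in both groups were induced with the carcinogen N-nitroso-N-methylurea (NMU), given in 2 intraperitoneal injections of 50 mg/kg, so no library came from gland without the carcinogen. The protocol spells out the schedule for midkine-treated rats only, and the labels give neither the vehicle's composition nor the age of the rats. RNA was taken from a ground piece of each tumour, so each library mixes tumour cells with whatever stroma, fat or muscle that piece held. Several titles share a number (midkine 3-1 and 3-2, midkine 4-1, 4-2 and 4-3, vehicle 2-1 and 2-2), which may mark tumours of 1 animal, and no label says so. P-values therefore reflect how far these libraries scatter, which may be in part technical.

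SREBF2 encodes SREBP2, a membrane-bound transcription factor that is carried by SCAP from the endoplasmic reticulum to the Golgi apparatus, cut there by the proteases MBTPS1 and MBTPS2, and released to the nucleus when cell sterols are low. INSIG1 holds the SCAP-SREBP complex in the endoplasmic reticulum when sterols are high, and is itself a target of the pathway. The nuclear factor raises transcription of nearly all enzymes from acetyl-CoA to cholesterol. Oxysterols work in the opposite direction through the liver X receptors NR1H2 and NR1H3, whose targets include the cholesterol exporters ABCA1 and ABCG1 and the ubiquitin ligase MYLIP. Growing tumour cells are known to need sterols for new membranes.

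At sterol-regulated promoters, SREBP2 is known to act together with NF-Y, which binds the CCAAT box, and with Sp1, which binds the GC box. Promoter sequences from RefSeq (rat assembly GRCr8) were matched by symbol for 7 of the 8 genes, SREBF2, INSIG1, HMGCS1, IDI1, FDPS, LSS and EBP. The 250 bases before the annotated start were searched on both strands. CCAAT was found in 7 of 7, against 34.0% of all 33469 promoters in the table and 35.2% of the 9709 that belong to genes tested here. Among the other sterol genes it was found in 18 of 28. The stretches around the CCAAT nearest to the start are shown because this motif was found in all 7. Capitals mark CCAAT, or ATTGG where it lies on the opposite strand, and each sequence runs 5′ to 3′ on the gene's own strand.
SREBF2: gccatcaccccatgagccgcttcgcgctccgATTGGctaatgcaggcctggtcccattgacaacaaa
INSIG1: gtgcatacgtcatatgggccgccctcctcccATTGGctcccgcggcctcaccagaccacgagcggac
HMGCS1: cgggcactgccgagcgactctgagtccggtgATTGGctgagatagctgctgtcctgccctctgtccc
IDI1: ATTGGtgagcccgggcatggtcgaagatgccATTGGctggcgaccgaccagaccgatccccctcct
FDPS: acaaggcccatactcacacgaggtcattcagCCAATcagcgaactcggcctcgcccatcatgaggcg
LSS: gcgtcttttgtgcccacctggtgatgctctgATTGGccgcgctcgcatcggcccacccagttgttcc
EBP: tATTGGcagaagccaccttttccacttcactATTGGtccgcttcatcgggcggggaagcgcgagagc
On GRCr8 these stretches lie at chr7:115543147-115543213 (plus strand) for SREBF2, chr4:8057927-8057993 (minus) for INSIG1, chr2:53382140-53382206 (plus) for HMGCS1 and chr17:66547525-66547590 (minus) for IDI1. Those of FDPS, LSS and EBP lie at chr2:176804866-176804932 (minus), chr20:12118277-12118343 (minus) and chrX:16971346-16971412 (plus). The marked box began 35 bases before the start in IDI1, 82 in LSS, 85 in FDPS and EBP, 129 in SREBF2, 133 in HMGCS1 and 193 in INSIG1. In 6 of these 7 promoters the box lay on the strand opposite to the gene, and FDPS was the exception. IDI1 and EBP held a second box within the stretch shown, 66 and 115 bases before the start.

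The GC box GGGCGG was found in 6 of 7 promoters, all but that of IDI1, against 30.5% of all promoters, 58.4% of those of tested genes and 21 of 28 among the other sterol genes. SREBF2 and HMGCS1 held 4 matches each. The letters CACNCCAC, a shortened sterol regulatory element, were found in INSIG1 and EBP, 231 and 199 bases before the start, against 4.89% of all promoters and 1 of 28 among the other sterol genes. The longer form TCACNCCAC, which contains the shorter form, was in 0 of 7, in 0.974% of all promoters and in 0 of 28 of the other sterol genes. These are exact matches of letters, with N for any base, in windows of 250 bases. Variants of the element with other letters were not searched for, and binding was not measured.

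The libraries held between 4925504 and 8486523 counted reads, and the lowest count of any of the 8 genes was 33, of LSS in midkine 1. Levels below are CPM, counts scaled to a common library size, and each gene is compared only with itself because the levels are not scaled by gene length. The epithelial marker list (EPCAM, keratins, claudins and others) had 10 of 10 genes tested, and its summed level was 2744 to 13408 CPM in midkine libraries (median 6664) and 6213 to 8762 CPM in vehicle libraries (median 7200). No marker of any of the 8 lists was at 0 in all libraries, but 7 of 8 fibroblast and 2 of 6 adipocyte markers passed the filter on low counts. The fibroblast marker COL1A2 had at most 19 counts (midkine 5), where COL1A1 had 461048. The sums hold all listed genes, also those that did not pass. The fibroblast sum was 204 to 130441 CPM in midkine libraries and 424 to 8590 CPM in vehicle libraries, and the T cell sum was 22.6 to 1158 CPM in midkine libraries and 21.1 to 68.4 CPM in vehicle libraries. The skeletal muscle sum reached 304662 CPM in midkine 1. The macrophage sum was 335 to 2847 CPM in midkine libraries and 237 to 703 CPM in vehicle libraries, and the proliferation sum was 113 to 1039 CPM in midkine libraries and 221 to 1138 CPM in vehicle libraries.

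No difference between midkine and vehicle tumours was detected for any of the 8 genes. With edgeR's quasi-likelihood test and Benjamini-Hochberg adjustment, 0 of 8 passed 0.05, as did 0 of all 11665 genes (0%). At an unadjusted p under 0.05 the count was again 0 of 8, while 929 genes (7.96%) were higher and 249 (2.13%) were lower in midkine among all genes. DESeq2 called 79 genes in all (0.677%) and 0 of the 8. The log2 fold change, midkine over vehicle, was below 0 for 7 of the 8, with INSIG1 the exception, against 44.3% of all genes, and its median was -0.18 for the 8 and 0.04 for all genes. That majority rested on vehicle 3: without this library 1 of 8, EBP, was below 0. The ranges of midkine and vehicle libraries overlapped for all 8 genes, and 2 genes in the whole table (0.0171%) had ranges that did not.

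**Figure D1:**
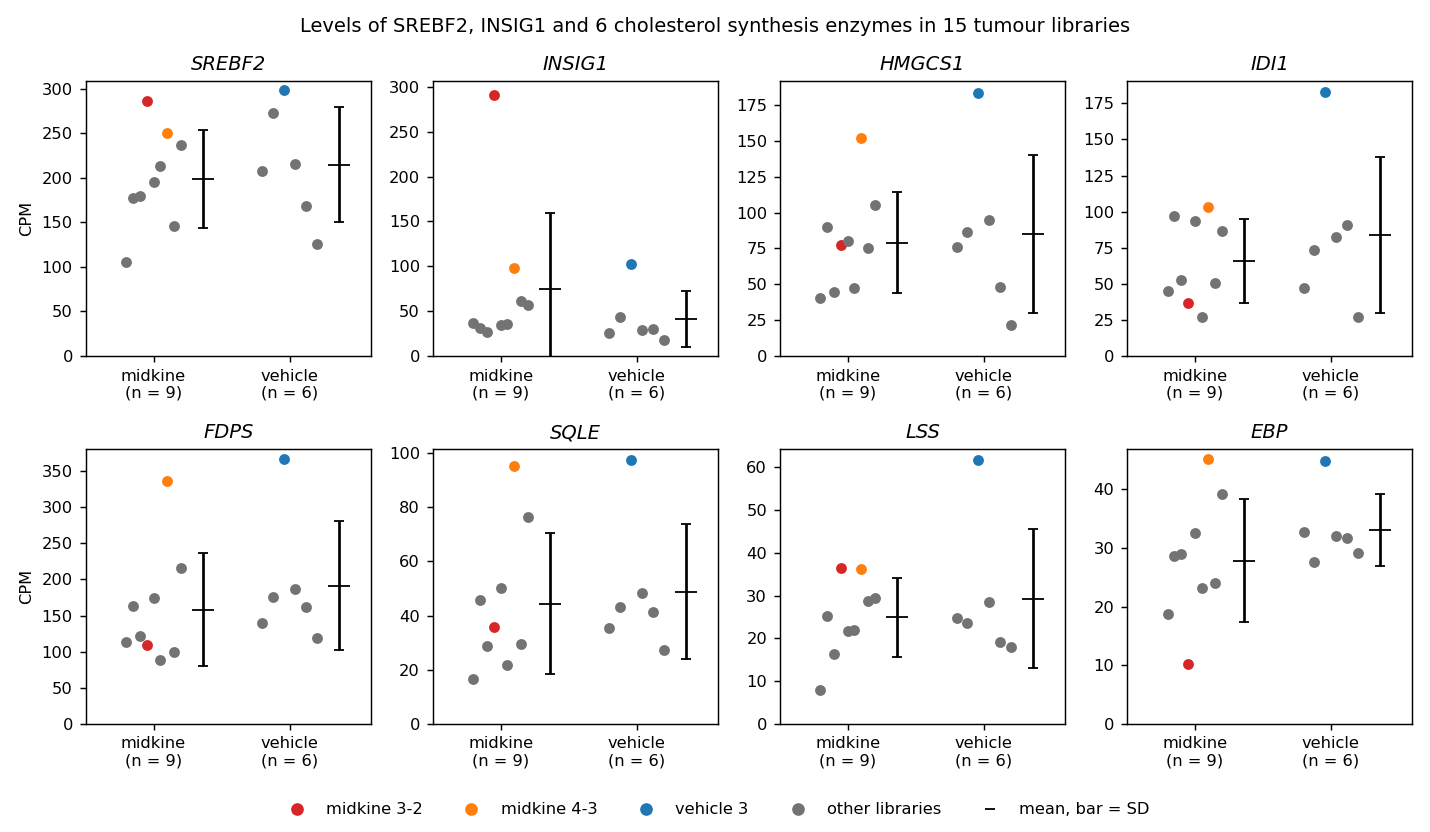
CPM (vertical axes, linear, starting at 0) of each gene in the 9 midkine libraries, left, and the 6 vehicle libraries, right, with the mean and SD beside each group. The ranges overlap in every panel. Vehicle 3 is the highest vehicle library for all 8 genes, and midkine 3-2 is far above the others for INSIG1 and below them for EBP. The lower SD bar of INSIG1 in midkine runs under 0 and is cut off at the axis.

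SREBF2 encodes the transcription factor itself. Its level was 105, 196 and 287 CPM (lowest, median, highest) in midkine tumours, and 125, 212 and 299 CPM in vehicle tumours. The means were 199 ± 55.1 CPM in midkine (SD, n = 9) and 215 ± 64.3 CPM in vehicle (SD, n = 6), and midkine 3-2 and vehicle 3 were the highest of their groups. The log2 fold change was -0.11 (SE 0.22, 95% interval -0.58 to 0.36, edgeR adjusted p = 0.909). The edgeR dispersion of SREBF2 stood at the 39.9th percentile of all tested genes, so its spread between tumours was below that of the median gene. Its coefficient of variation was 27.7% in midkine and 29.9% in vehicle, where EBP, at 18.6%, varied less.

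INSIG1, the retention protein, varied most of the 8. It stood at 27.0, 36.7 and 292 CPM (lowest, median, highest) in midkine tumours, and at 17.7, 29.3 and 103 CPM in vehicle tumours. In midkine it lay under 100 CPM in 8 of the 9 libraries, and midkine 3-2 alone, at 292 CPM, was above the highest vehicle library. The means were 74.8 ± 84.3 CPM in midkine (SD, n = 9) and 41.3 ± 31.2 CPM in vehicle (SD, n = 6). The log2 fold change of 0.86 (SE 0.56, 95% interval -0.33 to 2.05, edgeR adjusted p = 0.648) had the smallest p of the 8. It was 0.21 without midkine 3-2 and 1.37 without vehicle 3, so its size rested on the highest library of either group. Its dispersion stood at the 87.7th percentile of all tested genes.

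HMGCS1 makes HMG-CoA, an early intermediate of the pathway. Its levels were 40.7, 77.3 and 152 CPM (lowest, median, highest) in midkine tumours, and 21.7, 81.2 and 184 CPM in vehicle tumours. Vehicle libraries thus held both the lowest (vehicle 6) and the highest (vehicle 3) value of all 15. The means were 79.1 ± 35.0 CPM in midkine (SD, n = 9) and 85.1 ± 55.3 CPM in vehicle (SD, n = 6), and the log2 fold change was -0.11 (SE 0.38, 95% interval -0.91 to 0.70, edgeR adjusted p = 0.955).

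IDI1 interconverts the activated isoprene units, and FDPS joins them to farnesyl diphosphate, from which sterols, dolichol and protein prenyl groups are made. IDI1 was at 26.7, 52.3 and 103 CPM (lowest, median, highest) in midkine tumours and at 26.9, 78.1 and 183 CPM in vehicle tumours. Both groups thus began at nearly the same level, and vehicle 3 lay well above all other libraries. Its log2 fold change, the most negative of the 8, was -0.35 (SE 0.38, 95% interval -1.15 to 0.45, edgeR adjusted p = 0.816), with means of 65.7 ± 29.0 CPM in midkine (SD, n = 9) and 83.9 ± 53.9 CPM in vehicle (SD, n = 6). FDPS was at 89.0, 121 and 336 CPM (lowest, median, highest) in midkine tumours and at 119, 169 and 366 CPM in vehicle tumours. Midkine 4-3 and vehicle 3 stood apart at the top of their groups, at 336 and 366 CPM, and the next highest were midkine 6 at 216 CPM and vehicle 4 at 186 CPM. The means were 158 ± 78.4 CPM in midkine (SD, n = 9) and 191 ± 89.1 CPM in vehicle (SD, n = 6), with a log2 fold change of -0.28 (SE 0.31, 95% interval -0.93 to 0.38, edgeR adjusted p = 0.825).

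SQLE oxidises squalene in the first step that needs oxygen and is a control point of the pathway. It stood at 16.7, 35.8 and 95.1 CPM (lowest, median, highest) in midkine tumours, and at 27.3, 42.2 and 97.5 CPM in vehicle tumours, with midkine 4-3 and vehicle 3 again on top. The means were 44.4 ± 26.1 CPM in midkine (SD, n = 9) and 48.8 ± 24.9 CPM in vehicle (SD, n = 6), and the log2 fold change was -0.13 (SE 0.37, 95% interval -0.92 to 0.66, edgeR adjusted p = 0.943). LSS closes the resulting epoxide to lanosterol, the first sterol. It was at 7.86, 25.3 and 36.4 CPM (lowest, median, highest) in midkine tumours and at 18.1, 24.2 and 61.6 CPM in vehicle tumours, and the group medians were nearly the same. Its means were 24.9 ± 9.24 CPM in midkine (SD, n = 9) and 29.3 ± 16.3 CPM in vehicle (SD, n = 6), with a log2 fold change of -0.23 (SE 0.32, 95% interval -0.92 to 0.45, edgeR adjusted p = 0.866).

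EBP, which moves the double bond within the sterol ring late in the pathway, was at 10.1, 28.6 and 45.2 CPM (lowest, median, highest) in midkine tumours, and at 27.6, 31.9 and 44.9 CPM in vehicle tumours. Midkine 3-2, at 10.1 CPM, was the lowest of all libraries for this gene, and midkine 4-3 and vehicle 3 were level at the top. The means were 27.9 ± 10.5 CPM in midkine (SD, n = 9) and 33.0 ± 6.15 CPM in vehicle (SD, n = 6), with a log2 fold change of -0.24 (SE 0.25, 95% interval -0.78 to 0.29, edgeR adjusted p = 0.811). EBP was the only one of the 8 whose fold change kept its sign below 0 with each library left out in turn, between -0.36 and -0.13, and INSIG1 the only one that stayed above 0. In tissue pieces such as these, fewer cells of a type and less RNA per cell cannot be told apart.

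**Figure D2:**
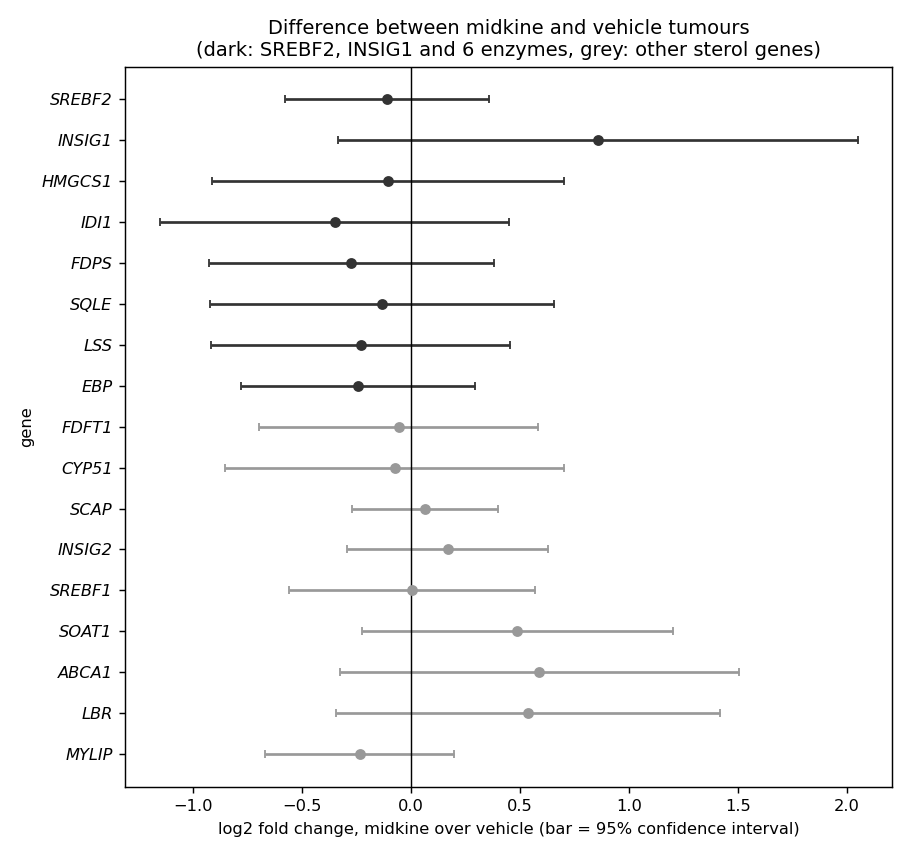
Log2 fold change, midkine over vehicle (horizontal axis), of SREBF2, INSIG1 and 6 enzymes (dark) and of 9 other sterol genes (grey), with 95% confidence intervals from edgeR. Every interval covers 0; that of SCAP, from -0.27 to 0.40, is the narrowest, and that of INSIG1, from -0.33 to 2.05, the widest.

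Enzyme levels differed between tumours within both groups. Over 20 enzymes of sterol synthesis (the 6 here and 14 others), vehicle 3 lay above the median of the 15 libraries for 20 of 20, with a median log2 deviation of 1.11. Midkine 4-3 did so for 19 of 20 (median 0.82) and midkine 6 for 18 of 20 (median 0.44), and in these 3 libraries all 8 genes were above their medians. Vehicle 4 also had 18 of 20 enzymes above the median, by less (median 0.21), and 7 of the 8 genes. At the other end, midkine 3-1 lay above the median for 0 of 20 enzymes (median deviation -0.45) and below it for all 8 genes. Midkine 1 had 5 of 20 above (median -0.57), midkine 4-2 had 3 (median -0.40), vehicle 5 had 3 (median -0.20) and vehicle 6 had 1 (median -0.44). Of all tested genes, between 44.6% (midkine 1) and 48.9% (midkine 2) lay above their medians in any library. High and low libraries thus occurred in both groups. Libraries that shared a title number were no nearer to each other than other libraries for 5 of the 8 genes. For FDPS the median absolute log2 difference was 0.94 over the 5 same-number pairs and 0.57 over the 46 other pairs of the same group, and for SREBF2 it was 0.35 and 0.47.

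Cell-type and proliferation markers differed between the same libraries. The summed epithelial markers were 12796 CPM in midkine 4-3, 7530 CPM in midkine 6 and 8762 CPM in vehicle 3, the highest of its group. They were 6213 CPM in vehicle 4, the lowest of the vehicle libraries although 18 of 20 enzymes were above the median there. In the low libraries they were 2744 CPM in midkine 1, 3353 CPM in midkine 4-2, 5685 CPM in midkine 3-1, 6900 CPM in vehicle 5 and 6315 CPM in vehicle 6. The summed proliferation markers (MKI67, TOP2A and 6 others) were 829 CPM in midkine 4-3, 866 CPM in midkine 6, 1138 CPM in vehicle 3 and 847 CPM in vehicle 4, against 158 CPM in midkine 1, 326 CPM in midkine 4-2, 375 CPM in midkine 3-1, 405 CPM in vehicle 5 and 221 CPM in vehicle 6. Midkine 5, with 1039 CPM of proliferation markers, had 8 of 20 enzymes above the median. Their part in the enzyme levels was not tested.

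**Figure D3:**
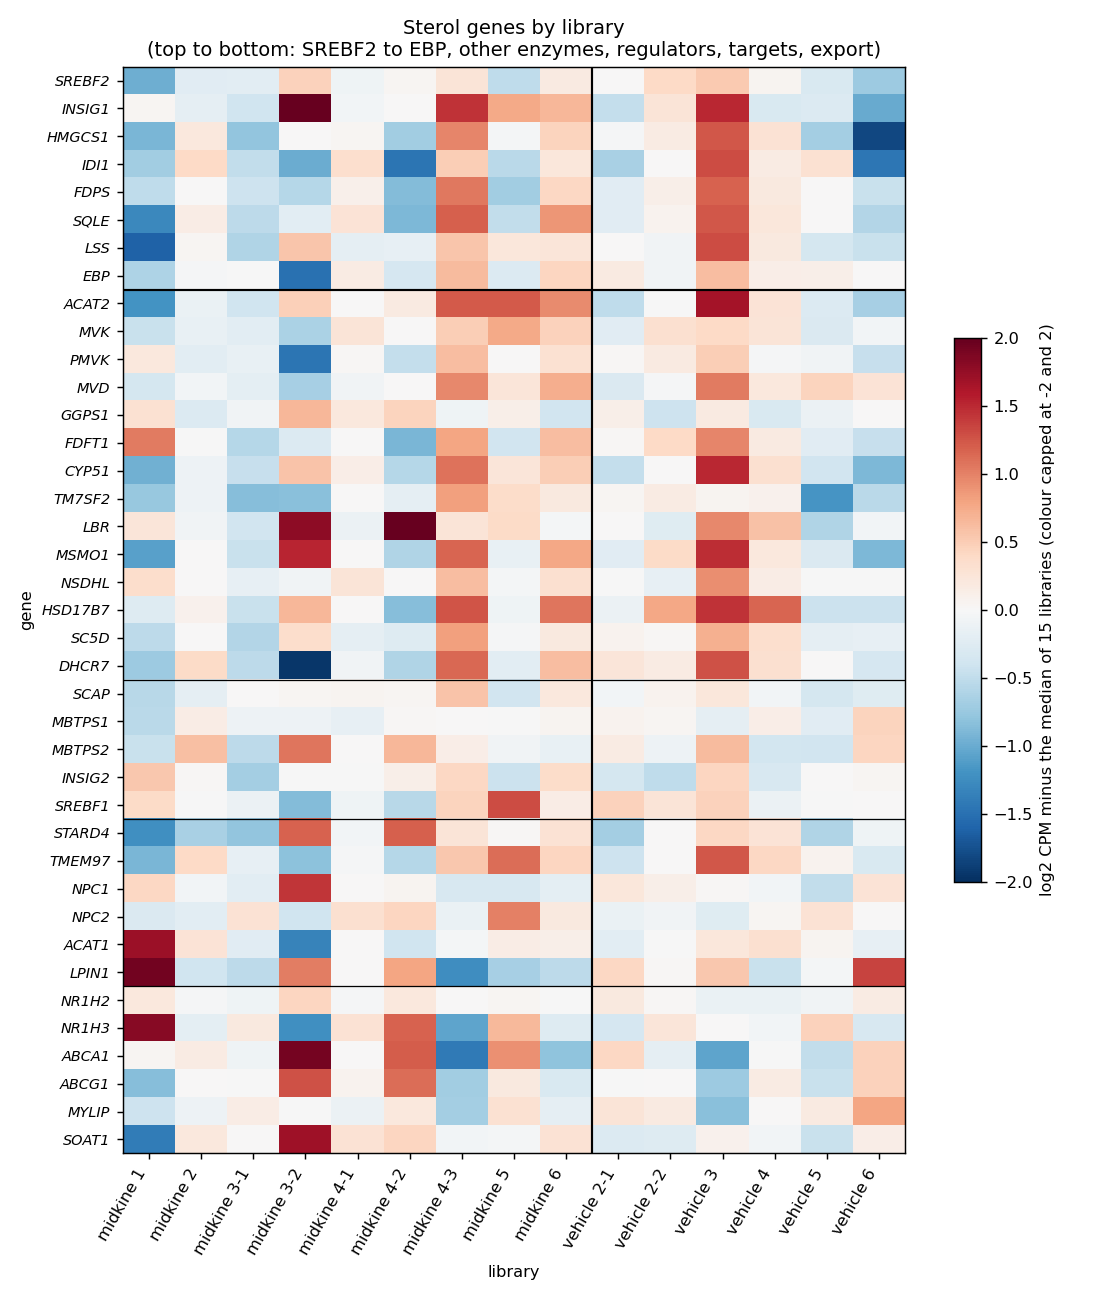
Log2 CPM minus the median of the 15 libraries (colour, red above and blue below, capped at -2 and 2) for the 8 genes and 31 other sterol genes (rows) in 9 midkine libraries, left of the line, and 6 vehicle libraries. Midkine 4-3, midkine 6 and vehicle 3 are red through nearly all enzymes, midkine 3-1 and vehicle 6 are blue through most, and midkine 3-2 is divided.

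Midkine 3-2 lay at neither end: 8 of 20 enzymes were above the median there and 11 below. MSMO1, which removes methyl groups from the sterol ring, was at 127 CPM, against at most 98.1 CPM in the other midkine libraries and 123 CPM in vehicle. INSIG1, at 292 CPM, was likewise the highest of all 15 libraries, and SREBF2, at 287 CPM, the highest of its group. On the other side, EBP (10.1 CPM), DHCR7 (11.4 CPM), a late sterol reductase, and PMVK (16.0 CPM), the phosphomevalonate kinase, were lower than in any other midkine library. Of the 20 enzymes, 3 were highest and 5 lowest among midkine libraries in midkine 3-2, while of all tested genes 23.1% were highest and 29.8% lowest there, so extremes were common throughout that library. INSIG1 had 3.77 counts for each HMGCS1 count in midkine 3-2, against 0.305 to 0.901 in the other 14 libraries. The summed epithelial markers were 13408 CPM there, of which 1 gene, the claudin CLDN4, made up 4494 CPM, against at most 559 CPM in any other library. Without CLDN4 the sum was 8914 CPM in midkine 3-2 and 12237 CPM in midkine 4-3, the highest. The proliferation markers had their lowest sum in midkine 3-2 (113 CPM). Midkine 3-1, with the same title number, had 27.0 CPM of INSIG1, 32.1 CPM of MSMO1 and 29.0 CPM of EBP.

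Levels of the 8 genes were correlated across tumours after the group means were removed. Pearson's r between log2 CPM deviations had a median of 0.66 over the 28 pairs (n = 15 libraries) and was above 0 for 27. By permutation of libraries within groups, two-sided and adjusted over the 28 pairs, 17 pairs passed 0.05 with Pearson's r and 17 with Spearman's rho. The same genes' correlations with the 11657 other tested genes had a median of -0.04, with quartiles at -0.32 and 0.28. The median r over the 28 pairs was 0.60 within midkine and 0.85 within vehicle. The points share libraries of different tissue make-up, and libraries with a common title number may not be independent.

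FDPS and SQLE were the closest pair, with r = 0.93 and rho = 0.90 (permutation adjusted p = 3.73e-04 and 0.00112, n = 15), and r was 0.87 without the 2 libraries farthest out on FDPS. The share of all other tested genes with an r this high, the partner gene itself included, was 0.00857% for FDPS and 0.00857% for SQLE, which is the partner alone. HMGCS1 and SQLE had r = 0.85 and rho = 0.94 (permutation adjusted p = 3.73e-04 and 1.40e-04), and IDI1 and FDPS had r = 0.87 and rho = 0.95 (permutation adjusted p = 3.73e-04 and 1.40e-04). Without the 2 libraries farthest out, r was 0.87 for HMGCS1 with SQLE and 0.85 for IDI1 with FDPS. Among the 15 pairs of enzymes the median r was 0.77, and 11 pairs passed, with shares over the same range as above.

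SREBF2 correlated most strongly with LSS (r = 0.80, rho = 0.69, permutation adjusted p = 0.00220 and 0.0120) and HMGCS1 (r = 0.75, rho = 0.67, permutation adjusted p = 0.00485 and 0.0199). Without the 2 libraries farthest out on SREBF2, r was 0.63 with LSS and 0.58 with HMGCS1. With EBP the correlation was weak over all 15 libraries (r = 0.13, rho = 0.23, permutation adjusted p = 0.661 and 0.449), and without midkine 3-2 it was higher (r = 0.69, rho = 0.61, permutation adjusted p = 0.00793 and 0.0397). INSIG1 and EBP were the sole pair with a negative r, -0.28 (rho = -0.0071, permutation adjusted p = 0.380 and 0.986). Without midkine 3-2 this pair had r = 0.58 but rho = 0.22 (permutation adjusted p = 0.0265 and 0.464).

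Without midkine 3-2 the median r was 0.76, the lowest was 0.58, and 28 of 28 pairs passed with Pearson's r but 22 with Spearman's rho. Of the 6 that did not pass by rho, 5 held INSIG1. Without vehicle 3 the median was 0.60, and 12 pairs passed with Pearson's r and 13 with Spearman's rho. With midkine 3-2, midkine 4-3 and vehicle 3 all left out, the median was 0.63, all 28 pairs stayed above 0 (lowest 0.07), and 11 pairs passed with Pearson's r and 6 with Spearman's rho. Leaving libraries out in this way was chosen after their values were seen.

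**Figure D4:**
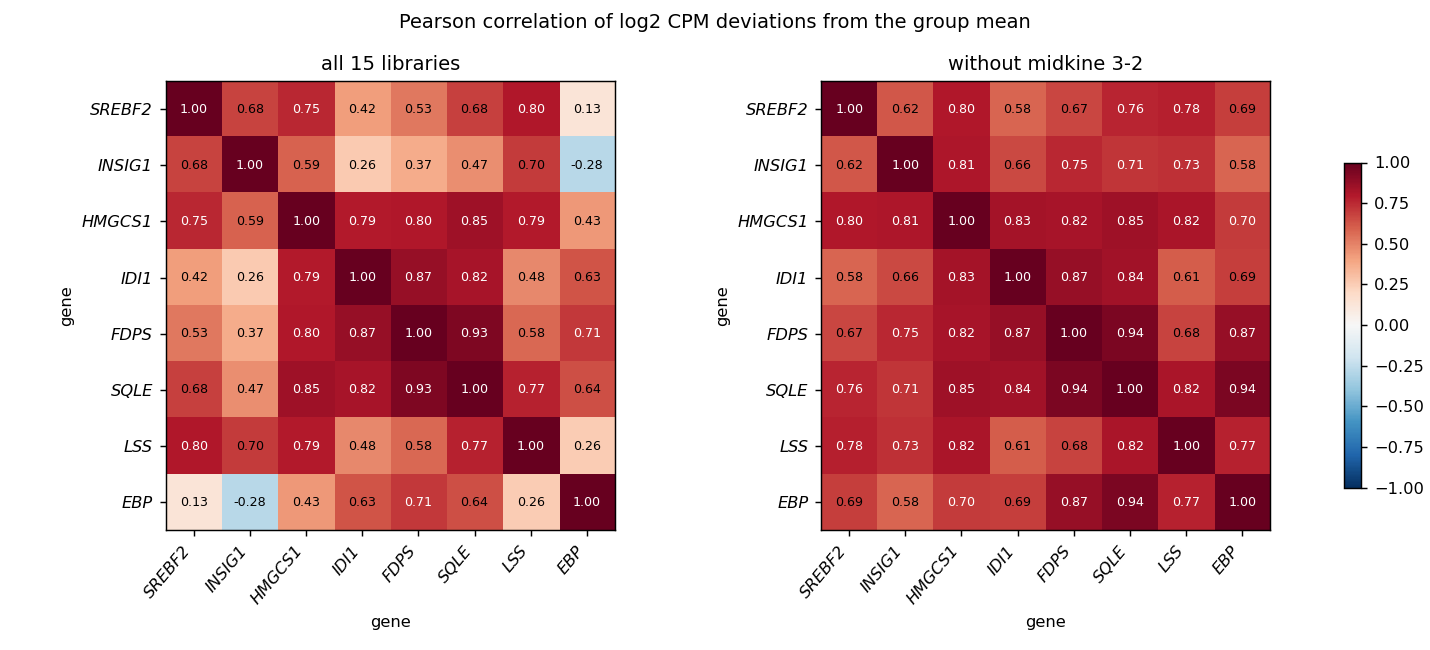
Pearson's r (colour and printed value) between the log2 CPM deviations from the group mean of each pair of the 8 genes, for all 15 libraries on the left and without midkine 3-2 on the right. The pale and blue cells in the rows of INSIG1 and EBP on the left, down to -0.28, are red on the right, where the lowest value is 0.58.

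Nor was a difference detected for the other genes of sterol handling. Of these, 31 were followed and all 31 passed the filter on low counts. With edgeR, 0 of 31 passed an adjusted p of 0.05 and 0 had an unadjusted p under 0.05. The log2 fold changes ran from -0.36 to 0.59 with a median of 0.06, and 12 were below and 19 above 0. The 14 other enzymes were divided 8 below and 6 above 0. CYP51, the lanosterol demethylase, averaged 90.6 ± 40.1 CPM in midkine (SD, n = 9) and 95.5 ± 68.6 CPM in vehicle (SD, n = 6), with a log2 fold change of -0.07 (SE 0.37, 95% interval -0.85 to 0.70). FDFT1, the squalene synthase, averaged 68.1 ± 32.0 CPM in midkine (SD, n = 9) and 70.9 ± 26.8 CPM in vehicle (SD, n = 6), with a log2 fold change of -0.06 (SE 0.30, 95% interval -0.70 to 0.58). The sign of both turned with at least 1 library left out.

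Of the 5 regulators tested, 1 was below 0 and 4 above. SCAP averaged 152 ± 35.0 CPM in midkine (SD, n = 9) and 145 ± 21.0 CPM in vehicle (SD, n = 6), a log2 fold change of 0.06 (SE 0.16). INSIG2, the second retention protein, had a log2 fold change of 0.17 (SE 0.22). SREBF1, which encodes the related factor of fatty acid synthesis, had one of 0.00 (SE 0.27), with means of 269 ± 131 CPM in midkine (SD, n = 9) and 269 ± 48.0 CPM in vehicle (SD, n = 6). The smallest p-values belonged to SOAT1, which esterifies cholesterol for storage (0.49, SE 0.34, edgeR adjusted p = 0.677), ABCA1 (0.59, SE 0.43, adjusted p = 0.704), LBR, an enzyme of sterol reduction in the nuclear envelope (0.54, SE 0.42, adjusted p = 0.722), and MYLIP (-0.24, SE 0.20, adjusted p = 0.754). These sizes moved with single libraries. Without midkine 3-2 the log2 fold change was 0.17 for SOAT1 and 0.26 for ABCA1. That of LBR was 0.23 without midkine 4-2, and that of MYLIP was -0.07 without vehicle 6 and -0.38 without vehicle 3.

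As a measure of likeness, the mean of a gene's Pearson correlations with the 8 was taken over the 15 libraries, with no test. It was above 0 for 13 of the 14 other enzymes and below 0 for 5 of 6 genes of oxysterol sensing, export and storage. Its median over all other genes was -0.04, so most genes of the whole table were below 0 as well. The likeness was 0.76 for CYP51, 0.70 for MSMO1, 0.69 for SC5D, 0.68 for HSD17B7 and 0.66 for ACAT2. The lowest values among the enzymes were 0.43 for MVK, 0.43 for FDFT1, 0.36 for PMVK, 0.06 for LBR and -0.20 for GGPS1, which makes the geranylgeranyl group for proteins. Without midkine 3-2, midkine 4-3 and vehicle 3, FDFT1 stood at 0.20, and NSDHL, a late sterol dehydrogenase, at 0.11 against 0.54 with all libraries. With all 15 libraries SCAP stood at 0.63, while SREBF1 stood at 0.12 and the protease MBTPS1 at -0.01. For MBTPS1 the groups differed in sign, with 0.43 within midkine and -0.64 within vehicle. Without midkine 3-2 the likeness was 0.88 for MSMO1, 0.85 for CYP51 and 0.85 for DHCR7, which stood at 0.56 with all libraries.

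MYLIP had a mean correlation of -0.59 with the 8 genes, ABCA1 -0.48, NR1H3 -0.43, NR1H2 -0.38 and ABCG1 -0.28, and SOAT1 was the exception at 0.23. From the highest down among 11657 other genes, their ranks were 11520 for MYLIP, 11171 for ABCA1, 10870 for NR1H3, 10422 for NR1H2 and 9375 for ABCG1. Many genes outside the sterol list were thus more negative, above all for NR1H2 and ABCG1. MYLIP and NR1H3 were below 0 with each of the 8. ABCA1 stood at -0.77 with IDI1, -0.84 with FDPS and -0.85 with EBP, but at -0.14 with SREBF2, 0.05 with INSIG1 and -0.14 with LSS. ABCG1 was above 0 with SREBF2 (0.17), INSIG1 (0.09) and LSS (0.12), and NR1H2 was above 0 with INSIG1 (0.25). ABCA1 was lowest in midkine 4-3 (17.1 CPM), midkine 6 (26.2 CPM) and vehicle 3 (22.0 CPM), the 3 libraries with the highest enzyme levels. It was 108 CPM in midkine 4-2 and 175 CPM in midkine 3-2, the highest midkine values, and 63.7 CPM in vehicle 6, the highest vehicle value. Other libraries with low enzyme levels did not have high ABCA1: vehicle 5 was next lowest at 32.7 CPM, midkine 3-1 had 43.4 CPM and midkine 1 had 47.1 CPM. MYLIP was at 77.8 CPM in midkine 4-3, 109 CPM in midkine 6 and 69.5 CPM in vehicle 3, and at 216 CPM in vehicle 6. In the other libraries with low enzyme levels it was 92.6 CPM (midkine 1), 137 CPM (midkine 3-1), 143 CPM (midkine 4-2) and 141 CPM (vehicle 5). Within midkine alone the mean correlation was -0.34 for MYLIP, -0.40 for ABCA1, -0.61 for NR1H3, -0.24 for NR1H2, -0.13 for ABCG1 and 0.28 for SOAT1. Within vehicle it was -0.92 for MYLIP, -0.79 for ABCA1, -0.64 for NR1H2 and -0.75 for ABCG1, but above 0 for NR1H3 (0.22) and SOAT1 (0.17). Without midkine 3-2, midkine 4-3 and vehicle 3 it was -0.30 for MYLIP, -0.42 for ABCA1 and -0.09 for ABCG1. Macrophages also express ABCA1 and ABCG1, and the summed macrophage markers were 477 CPM in midkine 4-3, 673 CPM in midkine 6, 2847 CPM in midkine 4-2, 488 CPM in midkine 3-2, 237 CPM in vehicle 3 and 415 CPM in vehicle 6. Their part in this pattern was not tested.

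**Figure D5:**
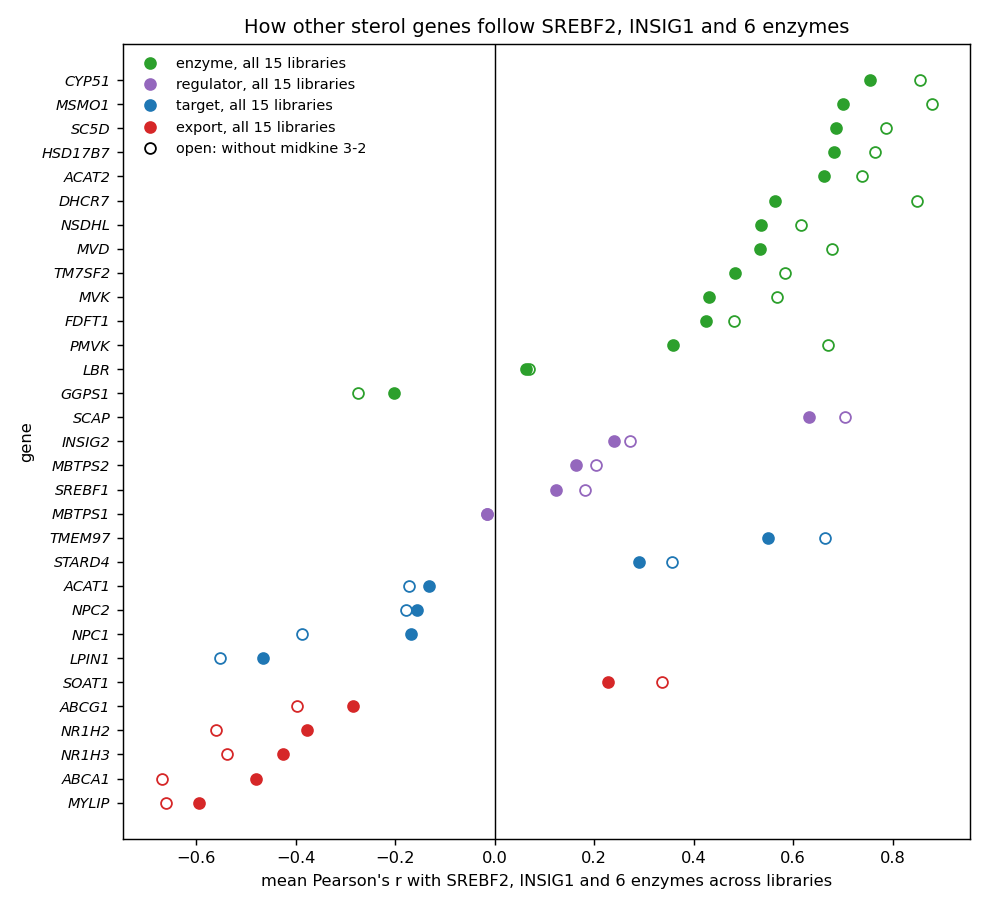
Mean Pearson's r of each of 31 other sterol genes (rows, coloured by role) with the 8 genes over all 15 libraries (filled) and without midkine 3-2 (open). Most enzymes, with CYP51 highest at 0.76, lie to the right, and the export genes other than SOAT1 lie to the left, down to -0.59 for MYLIP.

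Over all 11657 other genes, the 10 most like the 8 were CYP51 (0.76), XPO1 (0.74), MAL2 (0.72), CPNE5 (0.71), CBLC (0.71), LMNB2 (0.71), MSMO1 (0.70), SRSF3 (0.69), MMS22L (0.69) and TKT (0.69). XPO1 is the nuclear export receptor, MAL2 a membrane protein of apical transport, CPNE5 a copine, CBLC a ubiquitin ligase, LMNB2 a nuclear lamin, SRSF3 a splicing factor, MMS22L a protein of replication repair and TKT the transketolase. Of the 20 genes most alike, 4 were on the sterol list, namely CYP51, MSMO1, SC5D and HSD17B7, and the list held 31 of the 11657 other genes. The number among the 20 was 1 without vehicle 3, 2 without midkine 4-2, midkine 4-3, midkine 5 or vehicle 6, and 6 without midkine 1. By likeness to the 6 enzymes alone it was 1.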

How the data were processed

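The authors deposited whole-number read counts per gene symbol for 15 libraries, not normalized, per the file headers. Libraries were made after poly(A) selection and read as 150-bp pairs, per the labels' protocols, and the submitters' processing notes name rn6. How reads were counted, on which strand and with which annotation is not given in the sources used here, and gene copies or overlapping genes may share reads.

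In R 4.3.3, edgeR 4.0.16 was run on all genes that passed its expression filter, with trimmed-mean scaling and the quasi-likelihood F test of midkine against vehicle, and p-values were adjusted over 11665 genes. A standard error is the fold change divided by the square root of F. Correlations used log2 CPM (prior count 2) minus the group mean, with 100000 permutations of libraries within groups. DESeq2 1.42.0 and limma 3.58.1 (voom) were alternatives. Fits and correlations were tested on simulated data. Libraries of a group differed by more than counting noise (lowest chi-square over degrees of freedom 19.9).

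The genes and lists were chosen with earlier results of these data known. Named were the 8 genes, FDFT1, CYP51, SCAP, INSIG2 and SREBF1, the 4 other sterol genes of smallest p and the 10 genes most alike. Others (MSMO1, ACAT2, DHCR7, PMVK, MVK, NSDHL, GGPS1, MBTPS1, CLDN4, ABCG1, NR1H2, NR1H3, SC5D and HSD17B7) were named after their values were seen, and some sterol genes are not reported here. Correlations without midkine 3-2, vehicle 3 or the 3 libraries that stood apart, the epithelial sum without CLDN4, the fit on 10 libraries and the likeness to enzymes alone were chosen after seeing the data.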

Additional observations from a re-analysis of the deposited data

Results flagged for a closer look

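In 17 named genes, each examined in both groups (34 groups of values), 9 times the highest or lowest library lay farther from its neighbour than Dixon's 95% limit allows. All 9 were the highest library of their group. Chance gives about 1 in 20 only if values are normally distributed. The limit was applied to CPM rather than log2 CPM, and normality was not tested, so 9 of 34 cannot be judged against that rate. The values are also not independent because 3 libraries hold all 9. In midkine 3-2, INSIG1 was 291.6 CPM (next highest midkine library 97.88) and SOAT1 44.81 CPM (18.52). In vehicle 3, FDPS was 366.5 CPM (next highest vehicle library 186.2), SQLE 97.53 CPM (48.35), LSS 61.64 CPM (28.46), EBP 44.89 CPM (32.82), INSIG1 102.7 CPM (43.01) and CYP51 229.5 CPM (100.5). SREBF1 was 578.3 CPM in midkine 5 (320 in the next), which also had the highest fibroblast and endothelial marker sums, 130441 and 719 CPM. Its adipocyte sum, 375 CPM, was below only that of midkine 1 (606 CPM). The part of these cell types in the SREBF1 level was not tested.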

How the results depend on the processing

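No alternative called any of the 8 genes or the other 31 sterol genes. DESeq2 called 73 genes higher and 6 lower over all genes, and genes at an unadjusted p under 0.05 numbered 1178 with edgeR, 1249 with DESeq2, 602 with limma-voom and 323 with title number as a replicate block. Midkine and vehicle libraries of 1 title number did not deviate together for every number (correlations -0.19, -0.24, 0.14, -0.19 and -0.17 for numbers 2 to 6), so the number was not taken to pair the groups. Of 374 recomputed fold changes of 17 genes, 343 kept their sign and 31 did not, and the cause was not tested. The fold change turned to 0.062 for HMGCS1, 0.050 for CYP51 and -0.11 for SREBF1 with limma-voom, and to -0.0087 for SREBF1 without the filter. With libraries of 1 title number summed it was 0.039 for FDFT1 and -0.0081 for SCAP. With the replicate block it was 0.060 for HMGCS1, 0.025 for CYP51 and -0.038 for SREBF1. In the 10 libraries that carry reads of the muscle gene MYH4 it was 0.21 for FDFT1, -0.13 for SCAP and -0.057 for LBR. With each library left out, ranges were -0.23 to 0.0059 for SREBF2, -0.31 to 0.27 for HMGCS1, -0.54 to 0.036 for IDI1, -0.49 to 0.015 for FDPS, -0.35 to 0.19 for SQLE and -0.34 to 0.13 for LSS, each highest without vehicle 3. They were -0.24 to 0.40 for CYP51, -0.21 to 0.15 for FDFT1, -0.021 to 0.13 for SCAP and -0.22 to 0.10 for SREBF1. Correlated pairs by Pearson's r numbered 12 without vehicle 3, 28 without midkine 3-2 and 11 without these and midkine 4-3, against 17 with all libraries; by Spearman's rho they numbered 13, 22, 6 and 17. The correlation of INSIG1 with EBP was 0.24 over means by title number, 0.45 without the 2 libraries farthest out, 0.067 without the 3 libraries, -0.48 without vehicle 3 and 0.58 without midkine 3-2. Without the 2 farthest, r was -0.11 for SREBF2 with EBP and -0.15 for LSS with EBP. Sterol genes among the 20 most alike numbered 1 to 6 with a library left out, and 1 by likeness to the 6 enzymes alone. With 9 and 6 libraries the intervals were wide, for IDI1 -1.15 to 0.45.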
